A study of Mus musculus with 4 samples.

Results

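Timd4, Clec4f, Vsig4, Marco, Cd163, Cd5l, Folr2, Cd207, Clec1b and Fcna are the genes by which Kupffer cells, the resident macrophages of the liver, are told from other macrophages. They are 10 of the 32285 genes in the files. They were followed in the macrophages of 4 liver libraries. A cell was counted as a macrophage, here called C1q-high, when at least 500 genes were detected in it, at most 20% of its UMIs (unique molecular identifiers, each standing for 1 captured transcript) were mitochondrial, and C1qa, C1qb and C1qc together gave at least 10 UMIs. This gate kept 3627 C1q-high cells of 31290 cells and did not use any of the 10 genes. All 10 genes were detected in C1q-high cells of every library and all 10 passed the filter on low counts.

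Kupffer cells line the liver sinusoids, where they clear bacteria, dying cells and spent red cells from portal blood. Most are seeded before birth and renew themselves in place. When they are lost in fatty liver disease, monocytes can enter the empty niche and take on the Kupffer cell programme step by step. Clec4f is known to come early and Timd4 late or not at all in such monocyte-derived cells, so the set of these genes that a macrophage carries is widely used to tell the origins apart. Of the 10 genes, Cd5l and Fcna encode secreted proteins and the others encode surface receptors.

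The study profiled liver cells of male C57BL/6J mice, 5 weeks old when purchased, with the 10x Genomics 3' single-cell assay. NCD mice were kept on normal chow, and HFD mice on a diet labelled 60% fat. JQF mice received the same high-fat diet and, after 14 weeks of it, Jiangtang Qingre Formula, a formula of several medicinal herbs, by gavage for 8 weeks, while the NCD and HFD mice were given distilled water. There was 1 NCD, 2 HFD and 1 JQF library, each from whole perfused and digested liver after red cell lysis and removal of dead cells. The mice carried no engineered allele that the labels name. The labels call the cells immune cells and also haematopoietic stem cells, whereas by their markers 13.9% to 43.9% of the kept cells were T cells and 1.92% to 67.0% endothelial cells.

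The libraries held 7254 to 10943 called cells and 69445244 to 109446496 UMIs in them, and pairs of libraries shared 14 to 30 cell barcodes. C1q-high cells numbered 180 in NCD, 589 and 2408 in HFD replicates 1 and 2, and 450 in JQF, which was 3.01%, 9.04%, 23.5% and 5.27% of the cells kept. Their median depth was 19069 UMIs in NCD and 12056.5 to 13008.5 UMIs in the others. The macrophage label held: Csf1r, the receptor for the macrophage growth factor, was found in 92.8% to 98.7% of these cells, Adgre1 (F4/80) in 87.6% to 91.5%, and Cd68 in 83.9% to 90.2%. Mertk, Aif1, Lyz2 and Ctss were in 85.1% to 100%, but Fcgr1 in only 61.1% to 77.8%. These shares were taken at the full depth of each library. Endothelial markers were present too. Ptprb, Kdr, Stab2, Egfl7 and Mmrn2 summed to at least 3 UMIs in 43.9% of C1q-high cells in NCD and in 10.9%, 15.1% and 11.3% in HFD replicate 1, HFD replicate 2 and JQF. A sum over cells cannot tell fewer Kupffer cells from less RNA per Kupffer cell, so sums, shares of cells and counts per cell are given side by side.

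The genes lie on 7 chromosomes of GRCm38 (GENCODE M21). Clec4f (chr6:83644542-83656187, minus strand) and Cd207 (chr6:83671215-83677857, minus strand) are neighbours, with 15027 bases and 0 annotated genes between them. Timd4 lies at chr11:46810800-46844332, Marco at chr1:120474538-120505024, Cd163 at chr6:124304656-124330527, Vsig4 at chrX:96247203-96293438 and Cd5l at chr3:87357881-87371073. Folr2 (chr7:101839988-101857194) and Fcna (chr2:25624666-25628030) overlap other genes on the opposite strand. Clec1b (chr6:129397297-129409335) overlaps Clec9a on the same strand, so how reads were split between these last genes is uncertain.

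Promoter sequence was matched for all 10 genes, with 11 windows because Folr2 has an alternative start. The 250 bases before the start are printed for Timd4, Marco and Cd163, whose levels were farthest below NCD in both HFD libraries, and for the neighbours Clec4f and Cd207, whose levels went apart. They are RefSeq sequences of GRCm38.p6, written 5′ to 3′ along the gene. Capitals mark matches, on either strand, to 5 motifs of factors known in Kupffer cells.
Timd4 (chr11:46810549-46810798, plus strand): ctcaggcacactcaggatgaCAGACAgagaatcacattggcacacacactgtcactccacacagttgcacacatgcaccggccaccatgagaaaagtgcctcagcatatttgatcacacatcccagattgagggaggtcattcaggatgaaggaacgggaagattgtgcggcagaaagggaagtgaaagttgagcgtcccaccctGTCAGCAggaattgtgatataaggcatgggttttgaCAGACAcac
Marco (chr1:120505025-120505274, minus strand): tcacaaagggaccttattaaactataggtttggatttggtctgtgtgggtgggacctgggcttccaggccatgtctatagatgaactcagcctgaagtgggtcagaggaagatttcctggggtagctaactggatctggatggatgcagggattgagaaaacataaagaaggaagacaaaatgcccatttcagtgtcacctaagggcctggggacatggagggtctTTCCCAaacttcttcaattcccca
Cd163 (chr6:124304401-124304650, plus strand): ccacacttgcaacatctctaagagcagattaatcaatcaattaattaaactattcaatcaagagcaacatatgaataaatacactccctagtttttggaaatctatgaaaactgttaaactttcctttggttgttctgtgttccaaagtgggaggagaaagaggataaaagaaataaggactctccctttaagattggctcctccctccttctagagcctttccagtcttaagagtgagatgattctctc
Clec4f (chr6:83656117-83656366, minus strand): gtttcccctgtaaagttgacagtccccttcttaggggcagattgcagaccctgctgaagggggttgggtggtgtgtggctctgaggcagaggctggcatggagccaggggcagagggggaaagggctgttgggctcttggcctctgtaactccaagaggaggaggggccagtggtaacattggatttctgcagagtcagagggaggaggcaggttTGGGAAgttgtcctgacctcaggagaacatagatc
Cd207 (chr6:83677858-83678107, minus strand): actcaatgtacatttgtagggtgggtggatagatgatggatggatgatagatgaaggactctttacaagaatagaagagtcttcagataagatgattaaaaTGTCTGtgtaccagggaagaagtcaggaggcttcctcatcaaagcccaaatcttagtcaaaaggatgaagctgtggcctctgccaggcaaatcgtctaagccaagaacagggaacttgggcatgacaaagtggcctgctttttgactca
The motifs were TGGGAA (RBPJ, the effector of Notch), CAGACA (SMAD, the effector of TGF-β and BMP signals), TGCTGAC (MAF), GAGGAAGT (PU.1) and the direct repeat bound by LXR, none of which contains another. TGGGAA was found in Clec4f, Marco and Fcna, 3 of the 10 genes, and in 21.6% of 32851 mouse promoter windows of the same length. CAGACA was found in Timd4 and Cd207 against 17.1% of all windows. TGCTGAC was found in Timd4 and Fcna against 3.81%, and no window of the 10 genes held GAGGAAGT (2.44%) or the LXR motif (0.0152%). These letters describe the windows and do not show that a factor binds there. The Cd163 window held none of the 5.

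Timd4, Marco and Cd163, receptors for uptake, had the widest range between libraries. Levels are given as UMIs per 1000000 UMIs of the C1q-high cells (CPM), with exact Poisson 95% intervals that cover counting error only. Timd4, the phosphatidylserine receptor with which resident macrophages take up dying cells, stood at 412 CPM (391 to 434) in NCD, 2.54 (1.61 to 3.81) in HFD replicate 1, 102 (98.3 to 105) in HFD replicate 2 and 180.4 (170.5 to 191) in JQF. HFD replicate 1 was close to empty of Timd4, with 23 UMIs in 8 of 589 cells.
Cd163, the receptor for haemoglobin bound to haptoglobin, followed the same order, at 393, 2.21, 90.5 and 246 CPM in NCD, HFD replicate 1, HFD replicate 2 and JQF. Marco, a class A scavenger receptor that binds bacteria and particles, was at 581, 7.73, 151 and 656 CPM. Its level rested on few cells, since the 3 cells with most Marco gave 33.7% of its UMIs in NCD, 88.6% in HFD replicate 1, 10.2% in HFD replicate 2 and 18.1% in JQF. For all 3 receptors both HFD libraries lay below both NCD and JQF, and the HFD libraries themselves differed by 40.0-fold for Timd4, 41.0-fold for Cd163 and 19.5-fold for Marco.

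**Figure D1:**
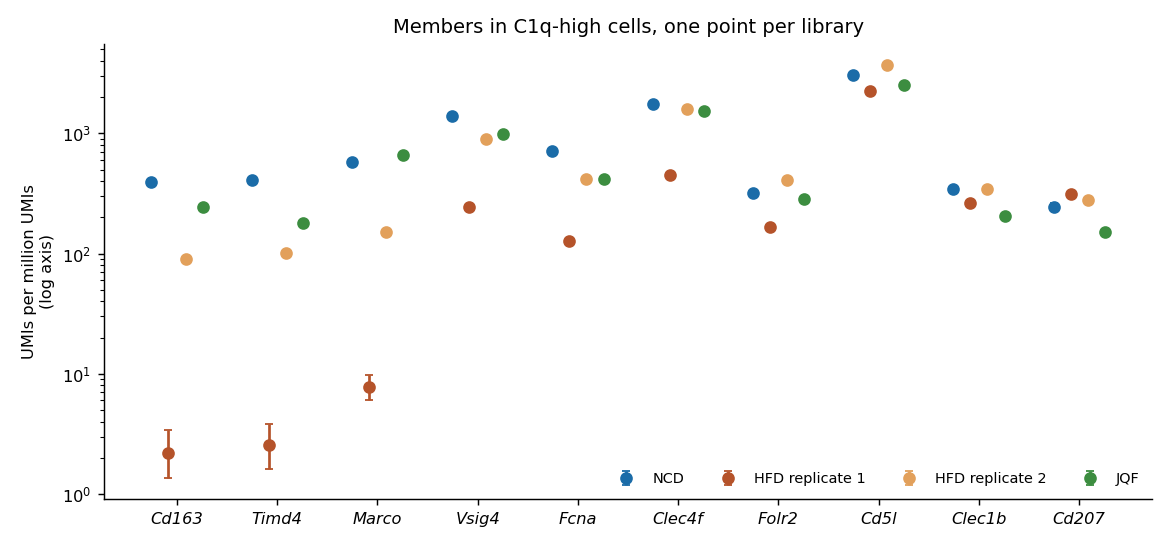
Level of each of the 10 genes in C1q-high cells of the 4 libraries, in CPM on a log axis, with exact Poisson 95% intervals as error bars. Timd4, Cd163 and Marco were at 2.21 to 7.73 CPM in HFD replicate 1 and at 90.5 to 656 CPM in the other libraries, whereas Cd207 stayed between 152 and 312 CPM.

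Vsig4, Fcna and Clec4f showed the same order of HFD replicate 1 below the rest, with a smaller range. Vsig4, the complement receptor CRIg that catches opsonised bacteria, was at 1397 CPM in NCD, 245 and 903 CPM in HFD replicates 1 and 2, and 982 CPM in JQF. Fcna, the secreted lectin ficolin A that starts the lectin pathway of complement, was at 715, 127, 417 and 421 CPM in the same order. Clec4f, a galactose-binding C-type lectin that in mice is close to exclusive to Kupffer cells, was at 1749, 446, 1603 and 1541 CPM. JQF lay above both HFD libraries for Vsig4 and Fcna, but by only 1.09-fold and 1.01-fold over HFD replicate 2, and for Clec4f it lay between them. The gap between the HFD libraries, 3.28-fold to 3.69-fold for these genes, was larger than the gap of either NCD or JQF from HFD replicate 2.

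For Folr2, Cd5l, Clec1b and Cd207 the HFD libraries were not both below NCD. Folr2, folate receptor beta, was at 319 CPM in NCD, 165 and 409.5 CPM in the HFD libraries and 284 CPM in JQF. Cd5l, a secreted protein also called apoptosis inhibitor of macrophages, was at 3045, 2243, 3707 and 2512 CPM. For both genes NCD and JQF lay within the range of the HFD pair.
Clec1b (CLEC-2), a receptor for podoplanin, was at 346 CPM in NCD, 266 and 347 CPM in HFD and 206 CPM in JQF. Cd207 (langerin), a C-type lectin best known from Langerhans cells, was the one gene with both HFD libraries above NCD, at 245 CPM in NCD and 312 and 277 CPM in HFD, and it was at 152 CPM in JQF. The order of Cd207 between NCD and HFD turned in C1q-high cells with under 3 UMIs of endothelial markers, where it was at 312 CPM in NCD and 234 and 267 CPM in HFD replicates 1 and 2. Clec1b and Cd207 were lowest in JQF, while the other 8 genes were lowest in HFD replicate 1.

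The order of loss was read from each gene's level as a percentage of its own level in NCD. In HFD replicate 1, Cd163 was at 0.563%, Timd4 at 0.617% and Marco at 1.33%, followed by Vsig4 at 17.5%, Fcna at 17.8% and Clec4f at 25.5%, and then by Folr2 at 51.8%, Cd5l at 73.7%, Clec1b at 76.7% and Cd207 at 128%. HFD replicate 2 began with the same genes, with Cd163 at 23.1%, Timd4 at 24.7% and Marco at 26.0%, then Fcna at 58.3%, Vsig4 at 64.6% and Clec4f at 91.6%, while Folr2, Cd5l, Clec1b and Cd207 were at 100.2% to 128%. Both HFD libraries were divided by the same NCD library, so this shared order is not independent between them. Vsig4 and Fcna in HFD replicate 1 differed by less than 1 percentage point, so their ranks cannot be told apart. Nor can those of Cd163 and Timd4 there, which rest on 20 and 23 UMIs. By share of cells Timd4 was the lower of these, at 0.858% of NCD against 1.55% for Cd163. The 3 genes farthest below NCD were the same in both HFD libraries under all 10 settings of the gate, doublet removal and thinning that were tried on the share of cells.

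The JQF library had another order. Marco was at 113% of its NCD level, Folr2 at 89.1%, Clec4f at 88.1%, Cd5l at 82.5% and Vsig4 at 70.2%, and Cd163, Cd207, Clec1b and Fcna were at 62.7%, 62.0%, 59.5% and 58.8%. Timd4 was the farthest from NCD at 43.8%. In cells with under 3 UMIs of endothelial markers Marco was below NCD as well, at 556 CPM in JQF and 691 CPM in NCD. Against HFD replicate 2, Marco was 4.35-fold, Cd163 2.72-fold and Timd4 1.78-fold higher in JQF, while Cd207 was at 0.548 of it. Clec1b in JQF was at 0.776 of HFD replicate 1 and 0.594 of replicate 2.

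**Figure D2:**
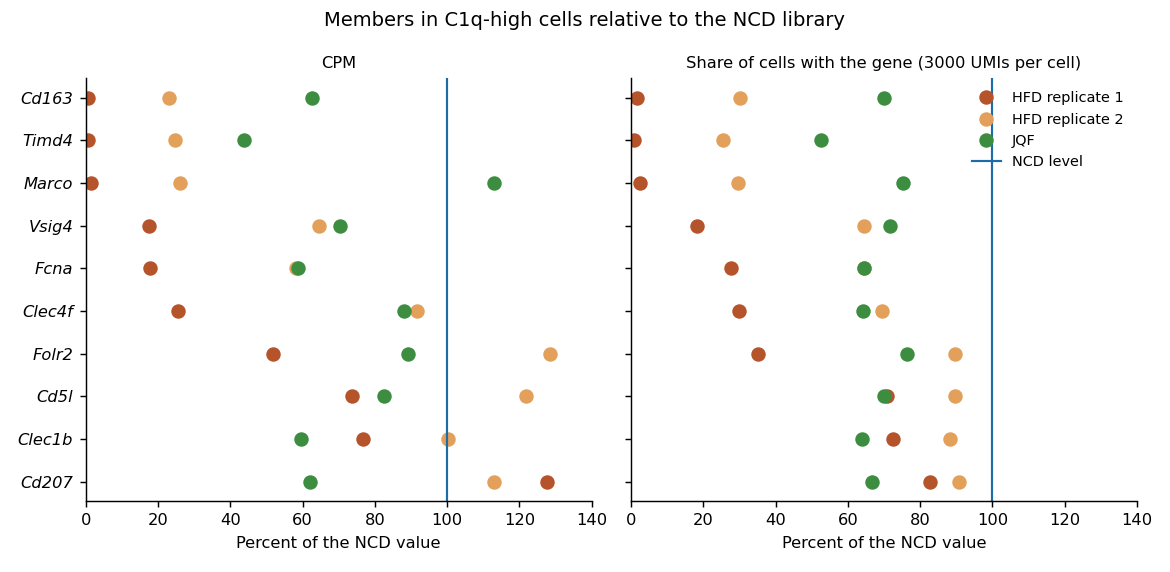
The 10 genes in HFD replicate 1, HFD replicate 2 and JQF as a percentage of NCD, for the level in CPM and for the share of cells with at least 1 UMI after thinning to 3000 UMIs. Cd163, Timd4 and Marco lay at 0.563% to 1.33% of the NCD level in HFD replicate 1 and at 23.1% to 26.0% in HFD replicate 2, and Timd4 was lowest in JQF at 43.8%.

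Both HFD libraries were below NCD for 6 of the 10 genes, against 49.0% of the 13985 genes tested, and above it for 1, Cd207, against 39.0%. JQF was above both HFD libraries for 5 genes, Timd4, Vsig4, Marco, Cd163 and Fcna, against 36.0% of all genes, and below both for Cd207 and Clec1b against 37.3%. The counts of 6 and 5 were near the background. The HFD replicates stood further apart, in that replicate 2 was above replicate 1 for 9 of the 10 genes, against 47.3% of all genes, and at least 2-fold above it for 7, against 9.42%.

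No gene was called between groups with edgeR's quasi-likelihood test on UMIs summed per library, at a Benjamini-Hochberg adjusted p under 0.05. This was 0 of 13985 genes in each of HFD against NCD, JQF against HFD and JQF against NCD, or 0.0% called. Each gene's own spread came from the HFD pair alone, with 1 residual degree of freedom. It was taken to hold for NCD and JQF, which had 1 library each. edgeR moderated this spread over all genes, with 2.66 prior degrees of freedom, so no p-value rests on the HFD pair of 1 gene alone. At an unadjusted p under 0.05, 4585 genes (32.8%), 1009 genes (7.21%) and 3149 genes (22.5%) passed, among which were none of the 10 genes for HFD against NCD, Cd207 for JQF against HFD, where 2.53% of all genes were lower at that level, and none for JQF against NCD, where 8.91% were lower. DESeq2 called 1108, 38 and 501 genes in the same contrasts, and edgeR called 2149, 2 and 107 with doublets removed and 3726, 124 and 1750 without the filter on low counts. No setting of either tool called any of the 10 genes.

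The fitted differences had wide standard errors (SE). For HFD against NCD the log2 difference in edgeR was −2.91 (SE 1.81, adjusted p = 0.326) for Cd163, −2.81 (SE 1.81, adjusted p = 0.340) for Timd4 and −2.71 (SE 1.60, adjusted p = 0.306) for Marco. Without HFD replicate 1 the Timd4 value was −1.87 and without replicate 2 it was −7.06, both without a test. Fcna was at −1.25, Vsig4 at −1.14 and Clec4f at −0.62, and without HFD replicate 1 these were at −0.63, −0.49 and 0.02. Cd207 was at 0.41 (SE 0.17, adjusted p = 0.202). The median over the 10 genes was −0.88, and over all genes tested it was 0.06.

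For JQF against HFD, edgeR gave a log2 difference of 3.04 (SE 1.61, adjusted p = 0.725) for Marco, 2.38 (SE 1.80, adjusted p = 0.765) for Cd163 and 1.77 (SE 1.81, adjusted p = 0.813) for Timd4. Cd207 had the smallest error of the set, at −0.95 (SE 0.18), with an unadjusted p of 0.00766 and an adjusted p of 0.587. Cd207 was lower in JQF than in both HFD libraries. The median was 0.61 for the 10 genes and −0.02 for all genes. For JQF against NCD the largest difference was that of Timd4, at −1.04 (SE 2.19, adjusted p = 0.797), and the median was −0.45 for the 10 genes and 0.02 for all genes. HFD enters the first 2 contrasts and NCD the first and last, so these contrasts share libraries.

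To compare shares of cells at 1 depth, each cell was thinned at random to 3000 UMIs, which left out 11, 21, 139 and 27 shallower C1q-high cells in NCD, HFD replicate 1, HFD replicate 2 and JQF. Timd4 was then found in 61.5% (exact 95% interval 53.8 to 68.9) of NCD cells, 0.528% (0.109 to 1.54) and 15.6% (14.2 to 17.2) of HFD cells and 32.4% (27.9 to 37.1) of JQF cells. Without thinning the shares were 80.6%, 1.36%, 22.3% and 46.0%. The 4 thinned intervals did not overlap, although they hold counting error and not the spread between mice.
Cd163 was found in 45.6%, 0.704%, 13.7% and 31.9% of thinned cells and Marco in 36.1%, 0.880%, 10.7% and 27.2%. In HFD replicate 1 the intervals of Timd4, Cd163 and Marco overlapped those of the monocytes of the same library, in which 0 of 498 cells held Timd4 or Marco (exact upper bound 0.738%) and 1 cell held Cd163. These shares were therefore not separated from those of monocytes at this depth, although Marco lay above the T cells of that library (0 of 1958, upper bound 0.188%). In CPM without thinning, Timd4 (1.61 to 3.81) and Marco (6.03 to 9.77) lay above the upper bound of 0.72 in monocytes, while Cd163 (1.35 to 3.41) overlapped monocytes (0.213 to 2.00). These intervals do not cover uneven spread over cells. In this library 50 of the 70 Marco UMIs and 10 of the 23 Timd4 UMIs were in 1 cell each. Clec4f was found in 85.2%, 25.5%, 59.2% and 54.6% of cells, Vsig4 in 78.7%, 14.4%, 50.8% and 56.5%, and Fcna in 72.2%, 19.9%, 46.6% and 46.6%.
Cd5l was in 89.3%, 63.4%, 80.1% and 62.6% of cells and Folr2 in 55.0%, 19.4%, 49.3% and 42.1%. Clec1b was in 60.9%, 44.2%, 53.8% and 39.0%, and Cd207 in 32.0%, 26.4%, 29.0% and 21.3%. NCD had the highest share for all 10 genes, also for Cd207, Cd5l and Folr2, whose CPM was higher in 1 or both HFD libraries. After thinning to 1500 UMIs this did not hold for Clec1b, at 32.9% in NCD and 37.6% in HFD replicate 2, Folr2, at 34.7% and 35.6%, and Cd207, at 20.2% and 20.5%. For Cd207 the cells that held it held more of it in both HFD libraries, since thinned Cd207-positive cells had 2.11 Cd207 UMIs in NCD and 2.98 and 2.77 in the HFD libraries.

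**Figure D3:**
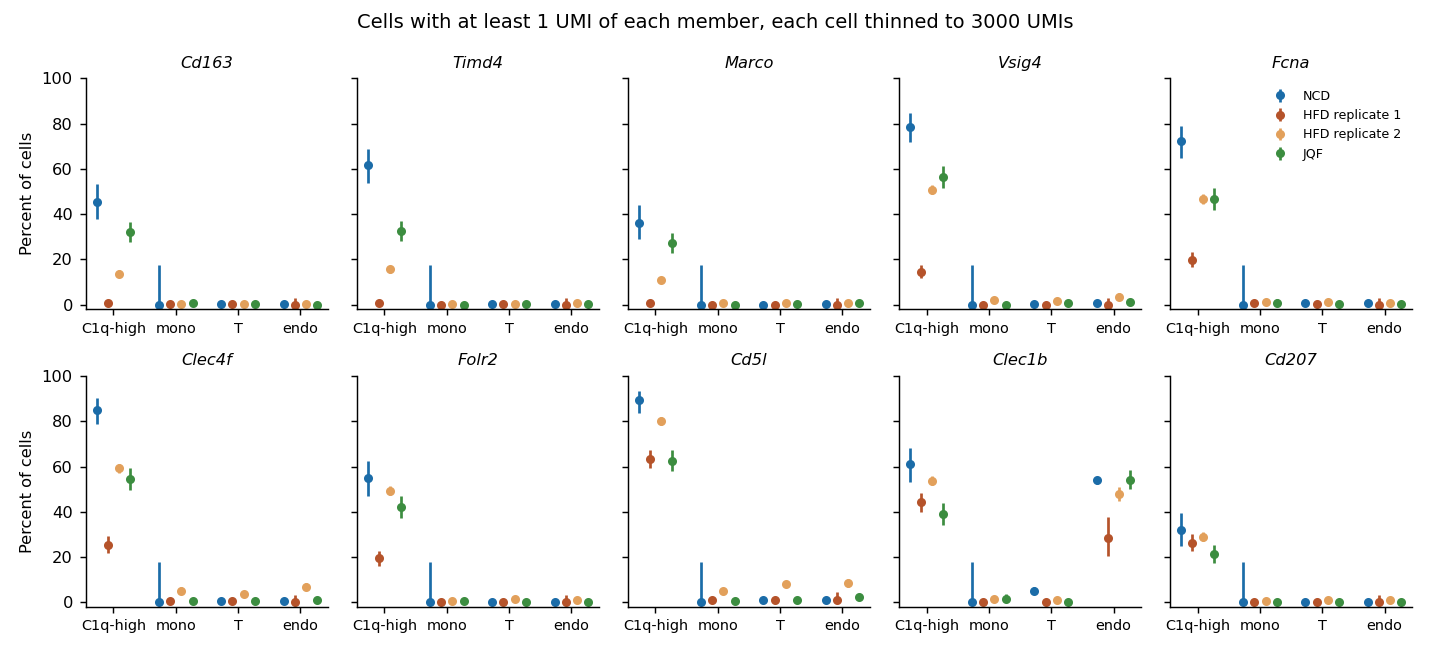
Share of cells with at least 1 UMI of each of the 10 genes after thinning to 3000 UMIs, in C1q-high cells, monocytes, T cells and endothelial cells of each library, with exact Clopper-Pearson 95% intervals. C1q-high cells lie above the other classes except for Timd4, Cd163 and Marco in HFD replicate 1, whose intervals overlap those of monocytes, and for Clec1b, which endothelial cells held in 28.4% to 54.2% of cells.

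The number of the 10 genes found in a single macrophage separated the libraries further. Thinned C1q-high cells held a mean of 6.17 of the genes in NCD, 2.15 and 4.09 in the HFD libraries and 4.14 in JQF, with medians of 7, 2, 4 and 5. Cells with 7 to 10 of the genes made up 55.6% (47.8 to 63.2) in NCD, 1.06% (0.389 to 2.28) and 21.7% (20.0 to 23.4) in HFD, and 35.9% (31.4 to 40.7) in JQF. Cells with none made up 5.92%, 30.3%, 15.3% and 27.4%. All 10 genes together were found in 7 NCD cells, 0 and 5 HFD cells and 5 JQF cells.
JQF and HFD replicate 2 had almost the same mean number of genes but different distributions. In HFD replicate 2 the numbers were spread broadly, with 37.5% of cells at 4 to 6 genes. In JQF only 18.7% lay there, and the cells gathered at both ends, with 27.4% at 0 genes, 3.55% at 3 genes and 14.2% at 8 genes. In HFD replicate 1, 43.1% of cells held 1 to 3 genes. Thinned T cells, which should lack most of these genes, held 1 to 3 of them in 7.42%, 2.30%, 17.2% and 3.63% of cells in NCD, HFD replicate 1, HFD replicate 2 and JQF. The part of transcripts from outside the cells in the shares of C1q-high cells with none was not tested.

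**Figure D4:**
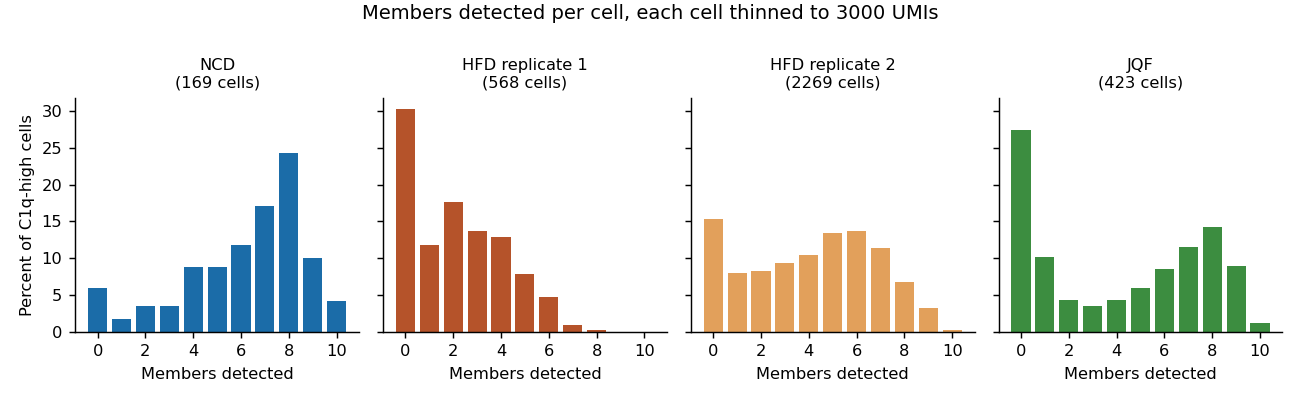
Histogram of how many of the 10 genes had at least 1 UMI in each C1q-high cell, thinned to 3000 UMIs, as a percentage of the cells of each library. NCD peaks at 8 genes with 24.3% of cells, HFD replicate 1 lies almost wholly at 0 to 6, HFD replicate 2 is broad, and JQF has a peak at 0 and another at 8.

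Co-detection showed which genes parted within the same cells. Clec4f-positive cells were taken as the reference, 144 in NCD, 145 and 1343 in the HFD libraries and 231 in JQF after thinning. Cd5l was found in 97.7% to 98.7% of them in every library, and Clec1b in 59.3% to 68.4%. Timd4 was found in 68.8% of the NCD cells, 1.38% and 25.6% of the HFD cells and 58.0% of the JQF cells, so a smaller share of Clec4f-positive cells held Timd4 in HFD. Whether the make-up of the Clec4f-positive cells differed or each cell held less Timd4 was not tested.
Cd163 was in 52.1%, 2.07%, 22.6% and 56.7% of Clec4f-positive cells and Marco in 40.3%, 1.38%, 17.2% and 47.6%. In JQF these shares were close to those of NCD. Vsig4 was in 88.2%, 30.3%, 73.7% and 95.2% and Fcna in 79.9%, 41.4%, 66.8% and 79.2%. Folr2 was in 63.9%, 49.0%, 71.8% and 74.0%. Cd207 ran the other way in HFD replicate 1, at 48.3% against 35.4% in NCD. HFD replicate 2, at 38.6%, was close to NCD, and JQF was at 29.9%.

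**Figure D5:**
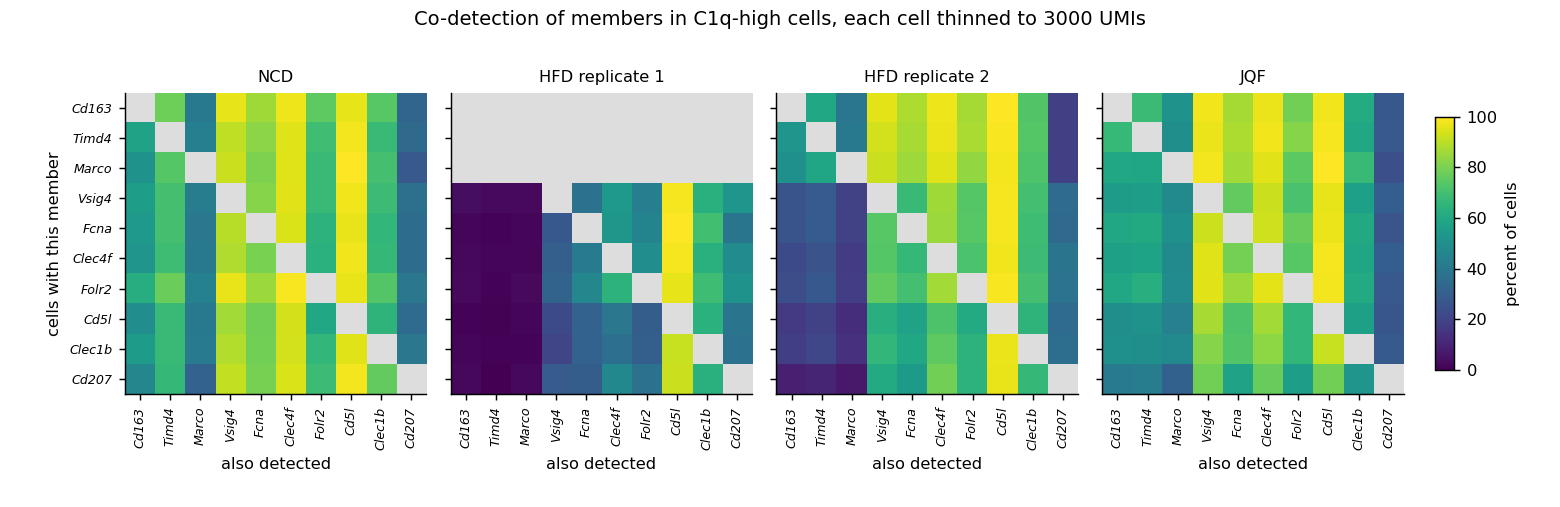
Share of thinned C1q-high cells holding the row gene that also hold the column gene, in percent, in each library. Grey marks the diagonal and rows with fewer than 20 cells, which were the Timd4, Cd163 and Marco rows of HFD replicate 1. In the Clec4f row the Timd4 column reads 68.8% in NCD, 1.38% in HFD replicate 1, 25.6% in HFD replicate 2 and 58.0% in JQF.

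Timd4 was nested in Clec4f. Cells with Timd4 but no Clec4f numbered 5 in NCD, 1 and 11 in the HFD libraries and 3 in JQF, against 99, 2, 344 and 134 cells with both. Cells with Clec4f alone made up 26.6% in NCD, 25.2% and 44.0% in the HFD libraries and 22.9% in JQF, and cells with neither 11.8%, 74.3%, 40.3% and 44.7%. Cells with both carried a mean of 5.54, 4, 5.56 and 5.78 of the remaining 8 genes, and cells with Clec4f alone 4.60, 3.34, 4.23 and 4.90.
In HFD replicate 2 the double-positive cells held Marco in 40.7% and Cd163 in 53.8%, while the cells with Clec4f alone held them in 9.11% and 11.8%. The cells with Clec4f alone held Marco in 43.3% and Cd163 in 41.2% in JQF, and in 35.6% and 37.8% in NCD. Cd207 was found in 18.9% of double-positive cells and 45.4% of Clec4f-only cells in HFD replicate 2, but in 36.4% and 33.3% in NCD and 28.4% and 32.0% in JQF. These differences lie within single libraries and have no replicate check.

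Across the cells of a library, Pearson's r between log-scaled values is given as a description, since the cells share a library, a depth and the gate. Over the 45 pairs of the 10 genes the median r was 0.30 in NCD, 0.13 and 0.35 in the HFD libraries and 0.49 in JQF. Cd5l and Clec4f had the highest mean over the 4 libraries, 0.68, followed by Clec4f and Vsig4 with 0.63 and Cd5l and Vsig4 with 0.60. The lowest means were those of Cd207 with Marco, −0.03, with Timd4, −0.02, and with Cd163, 0.02. Cd207 and its genomic neighbour Clec4f had a mean r of 0.20.

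C1q-high cells with no UMI of the 10 genes after thinning differed in other genes from cells with many of them. These cells with none were compared with those holding 7 to 10, as CPM after thinning. HFD replicate 1 was left out of this comparison, since it had 6 cells with 7 to 10. Some of the cells with none hold the genes at full depth. In HFD replicate 2, 7.56% of C1q-high cells had none without thinning, against 15.3% after it. The cells with none numbered 10 in NCD, so the NCD values of this class rest on few cells, and 347 and 116 in HFD replicate 2 and JQF. The 10 genes of the monocyte list summed to 1933 CPM in cells with none and 67.4 CPM in cells with 7 to 10 in NCD, 2573 and 291 in HFD replicate 2, and 2078 and 101 in JQF. Ccr2, the receptor that draws monocytes out of the blood, was at 433, 430 and 417 CPM in cells with none and at 0, 14.2 and 2.19 CPM in cells with 7 to 10. H2-Ab1, an MHC class II gene, was at 4833, 5189 and 6408 CPM in cells with none and 1585, 1995 and 1224 CPM in the others. Dendritic cell markers summed to 400, 196 and 293 CPM in cells with none and 49.6, 108 and 59.2 CPM in the others. The stress list (Fos, Jun, Dusp1, Hspa1a and Hspa1b) summed to 12200 against 10386.5 CPM in NCD and 9010 against 4682 CPM in HFD replicate 2.
Other Kupffer cell genes moved with the 10. A list of 15, among them Cdh5, C6 and Slc40a1, summed to 1700, 1470 and 1376 CPM in cells with none and to 10528, 12350 and 13154 CPM in cells with 7 to 10. C6, a complement component, was at 0, 0.961 and 0 CPM in cells with none and at 766, 686 and 873 CPM in cells with 7 to 10. The transcription factor list differed little in its sum, with 5233, 5239 and 4624 CPM against 6216, 5398 and 6379 CPM, but not all of its members did. Spic was at 100, 39.4 and 25.9 CPM in cells with none and 291, 211 and 276 CPM in cells with 7 to 10, and Nr1h3 (LXR alpha) at 200, 225 and 284 CPM against 358, 525 and 496 CPM. Id3 of the same list went the other way in NCD, at 1000 against 801 CPM, and in HFD replicate 2, at 784 against 727 CPM. The lipid-associated list, which includes Trem2, Gpnmb and Spp1, stood at 1433, 7383 and 6221 CPM in cells with none and 2582, 6228 and 6822 CPM in cells with 7 to 10, so its sum differed little in HFD replicate 2 and JQF. The 3 genes named, picked after their values were seen, were higher there in cells with none. The rest of the list did not follow them in JQF, where the list sum was lower in cells with none. Gpnmb was at 347 against 36.6 CPM in HFD replicate 2 and 353 against 41.7 CPM in JQF, Spp1 at 365 against 12.9 CPM and 273 against 4.39 CPM, and Trem2 at 319 against 136 CPM and 310 against 186 CPM. In HFD replicate 1, cells with none were set against cells with 4 to 6 genes. Gpnmb was at 510 against 290 CPM and Spp1 at 397 against 75.9 CPM, but Trem2 was not higher in cells with none, at 357 against 382 CPM.

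The same lists were followed over all C1q-high cells of each library beside the 10 genes. For HFD against NCD, 0 genes of any list were called by edgeR. Over all 13985 genes tested, 7359 were higher and 6626 lower in HFD. Of the 15 other Kupffer cell genes 4 were higher and 11 lower, with a median log2 difference of −0.53. Slc40a1, the iron exporter ferroportin, was at 1566 CPM in NCD, 716 and 1138 CPM in HFD and 946 CPM in JQF, Hmox1, which breaks down haem, at 1532, 666, 742 and 1133 CPM, and Vcam1 at 744, 806, 1483 and 969 CPM. Of 11 Kupffer cell transcription factors tested 6 were higher and 5 lower (median 0.10), and Maf, at 1426 CPM in NCD, was at 672, 673 and 658 CPM in the others, while Zeb2 was level, at 1766, 1722, 1851 and 1656 CPM.
The receptors and mediators of niche signals (Notch, TGF-β and BMP, with the IL-6 receptor gene Il6ra) had 2 higher and 8 lower of 10 (median −0.22), with Tgfbr1 at 171, 312, 229 and 263 CPM, Tgfbr2 at 199, 119, 124 and 146 CPM and Il6ra at 180.5, 153, 156 and 144 CPM. Other scavenger genes had 7 higher and 3 lower (median 0.11). Mrc1, the mannose receptor, was at 1283 CPM in NCD and 510.2, 695 and 575 CPM in the others, Cd36 at 521, 725, 873 and 893 CPM and Mertk at 861, 714, 841 and 559 CPM. The general macrophage list had 7 higher and 1 lower (median 0.73), with Lyz2 at 2050, 5097, 3951 and 6146 CPM, Ctss at 1729, 2644, 2546 and 2242 CPM and Csf1r at 804, 698, 844 and 811 CPM.

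The lipid-associated list was higher for all 10 of its genes (median 3.74), all at an unadjusted p under 0.05, where 17.5% of all genes were higher at that level. Ctsd, a lysosomal protease, was at 1029 CPM in NCD, 2897 and 2344 CPM in HFD and 2579 CPM in JQF, Lgals3 at 394, 2257, 1496 and 1506 CPM and Lpl at 711, 1504, 1275 and 1076 CPM. The monocyte list was higher for 9 and lower for 1 (median 1.74), all 10 at that level too, where 15.3% of all genes were lower, and summed to 429, 960, 871 and 1125 CPM, with S100a4 at 15.6, 275, 156 and 259 CPM, Plac8 at 63.6, 196, 274 and 115 CPM and Fn1 at 197, 66.9, 86.3 and 204 CPM. None of the monocyte genes was at 0 in any library. For JQF against HFD the lipid-associated list had 1 higher and 9 lower (median −0.34), the monocyte list 8 and 2 (median 0.31) and the other Kupffer cell genes 8 and 7 (median 0.02), again with 0 called. Over all genes tested, 6674 were higher and 7311 lower in that contrast. Against NCD, JQF was lower for 11 of the 15 other Kupffer cell genes (median −0.31) and for 9 of the 10 Kupffer cell identity genes, where 48.5% of all genes were lower. Of these 9, Folr2 at −0.02 and Clec4f at −0.04 were near 0 and changed sign under other settings.

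Within the C1q-high cells, markers of other cell types moved with the libraries as well. The 6 endothelial markers summed to 1607 CPM in NCD, 59.8 and 225 CPM in HFD and 124 CPM in JQF (0 higher and 6 lower for HFD against NCD, median −3.15), with Ptprb at 524, 2.98, 55.5 and 34.7 CPM. T cell markers summed to 16.4, 26.3, 56.5 and 107 CPM (5 higher, 0 lower) and B cell markers to 5.09, 20.0, 25.7 and 28.7 CPM (4 higher, 0 lower), with 2 of the 4 B cell genes at 0 in NCD. Neutrophil markers summed to 106, 108, 252 and 169.9 CPM (3 higher, 2 lower), dendritic cell markers to 83.7, 215, 169 and 189 CPM (6 higher, 0 lower) and platelet markers to 84.9, 191, 148 and 211 CPM (2 higher and 1 lower of 3 tested, with 2 of 5 at 0 in NCD). Hepatocyte markers, at 167, 34.7, 84.4 and 93.99 CPM, had 0 higher and 5 lower. The 5 genes of the stress list had 0 higher and 5 lower (median −0.74), with Fos at 2147, 1262, 2024 and 2980 CPM, Dusp1 at 2616, 1024, 1885 and 2415 CPM and Jun at 1700.2, 864, 977 and 1754 CPM. JQF was above both HFD libraries for these 3 early response genes, which respond to tissue digestion among other signals, while the other 2 of the list, Hspa1a and Hspa1b, were lower in JQF than in HFD. The part of these markers in the differences of the 10 genes was not tested. Cells were also split at 3 UMIs of the endothelial markers, a split that follows depth, with a median of 25009 UMIs in cells with the markers and 13671 in cells without in NCD, and 24001.5 and 12060 in HFD replicate 1. In NCD, Timd4 was at 414 CPM in cells with endothelial markers and 409 CPM in cells without, and Clec4f at 1856 and 1613 CPM. In HFD replicate 1, Timd4 was at 6.33 and 1.74 CPM and Clec4f at 1168 and 294 CPM, but only 1.56% of the 64 cells with the markers held Timd4. Clec1b, which endothelial cells also express, was higher in cells with the markers in every library. It was at 382 and 301 CPM in NCD, 454 and 226 in HFD replicate 1, 454 and 317 in HFD replicate 2, and 362 and 175 in JQF.

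The genes most like the set were ranked by the mean r, over the 4 libraries, between a gene and the summed UMIs of the 10 across C1q-high cells, among 8645 genes. The sum does not weigh the 10 alike. Cd5l gave 2243 of its 3817 CPM in HFD replicate 1 and 3707 of 8006 CPM in HFD replicate 2. Slc40a1 came first with 0.75, followed by Cfp (properdin, which stabilises the alternative complement convertase) with 0.71, Sdc3 with 0.71, Il18bp with 0.69, Lgmn with 0.67, and Pltp, Mrc1, Serpinb6a and Grn with 0.65 each, and Wfdc17 with 0.62. Their levels between libraries varied. Slc40a1 and Mrc1, with the levels given above, were like Timd4 highest in NCD and lowest in HFD replicate 1. So was Sdc3, at 970.2, 643, 903 and 707 CPM in NCD, HFD replicate 1, HFD replicate 2 and JQF. Cfp was highest in HFD replicate 2, at 536, 359, 641 and 527 CPM in the same order.

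Monocytes of the same libraries gave the background. They were gated on Lyz2 and monocyte markers with at most 2 C1q UMIs, and numbered 20, 517, 856 and 382, with median depths of 15744, 9418, 10214 and 13968 UMIs. All 10 genes were higher in C1q-high cells by edgeR with the library as a block, and all 10 were called, against 33.3% of the 11840 genes tested and 17.6% that were called higher. The log2 difference ran from 5.71 (SE 0.41, adjusted p = 0.000113) for Clec1b to 8.61 (SE 0.45, adjusted p = 3.31e-05) for Cd5l. Both classes were gated on C1q, so genes that go with C1q differ by construction.
In NCD monocytes 8 of the 10 genes had 0 UMIs, where 3 UMIs would be 9.75 CPM. In HFD replicate 1 and JQF monocytes no gene was above 3.56 CPM. HFD replicate 2 had more, with Cd5l at 20.0 CPM, Clec4f at 13.9 CPM and Clec1b at 11.1 CPM. T cells of that library, which should lack these genes, held Cd5l at 25.0 CPM, Clec4f at 12.9 CPM and Clec1b at 6.24 CPM, and outside called cells Cd5l was at 1333 CPM and Clec4f at 698 CPM, against 127 to 433 and 90.6 to 178 CPM in the other libraries. Monocytes were thus no higher than T cells for Cd5l, and their intervals overlapped for Clec4f, but their CPM was higher for Clec1b (9.05 to 13.5 against 5.06 to 7.61 CPM). The 3 monocytes with most Clec1b gave 38.6% of its UMIs in that class. After thinning the shares of cells with Clec1b overlapped, at 1.57% (0.838 to 2.67) in monocytes and 1.22% (0.773 to 1.82) in T cells. A thinned monocyte held a mean of 0, 0.0261, 0.165 and 0.0483 of the 10 genes.

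Some of the genes were also expressed outside macrophages. Clec1b stood at 287, 118, 244 and 271 CPM in endothelial cells, and these held 92.9% of its UMIs in NCD, 4.95% and 13.9% in the HFD libraries and 49.96% in JQF. Endothelial cells numbered 4006 in NCD and 125, 1157 and 642 in the others. Fcna in NCD had 18.7% of its UMIs in endothelial cells, at 8.50 CPM, but 3.67% of these cells held it and the 3 cells with most Fcna gave 31.3% of those UMIs. In the remaining libraries at least 92.4% of Fcna was in C1q-high cells.
Timd4 was found in a further class, chosen after seeing where its UMIs lay: cells with at least 2 UMIs of Xcr1, Clec9a and Flt3, markers of conventional dendritic cells, and at most 2 C1q UMIs. These cells numbered 189, 1009, 1120 and 1120 and held Timd4 at 40.6, 8.75, 10.7 and 13.6 CPM, in 13.2%, 4.66%, 6.43% and 6.96% of cells. In HFD replicate 1 they held 80.7% of the 212 Timd4 UMIs of all kept cells and C1q-high cells 10.8%, whereas in the other libraries C1q-high cells held 76.6% to 91.9%. Of the 55 Cd163 UMIs of all kept cells in HFD replicate 1, this class and C1q-high cells held 36.4% each, and monocytes 7.27%. In the other libraries C1q-high cells held 91.9% to 97.5% of Cd163. Cd207 had 18.0% of its UMIs in the dendritic-marker class in JQF, and 0.850% to 4.12% in the other libraries. Clec4f, Vsig4 and Cd5l had 96.5% to 99.1% of their UMIs in C1q-high cells of every library.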

How the data were processed

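Livers of male C57BL/6J mice were profiled with the 10x Genomics 3' single-cell assay in 4 libraries, 1 NCD, 2 HFD and 1 JQF, grouped by their labels. The deposited values were UMI counts per gene and cell barcode, which the authors made with Cell Ranger 6.0.1 on mm10 and analysed with Seurat 4.0.3, per the submitters' processing notes. The headers of the filtered matrices name Cell Ranger 7.0.0 and those of the unfiltered ones Cell Ranger 4, so the version, and with it whether intronic reads were counted, was not settled. Cell types were taken from markers, since no per-cell annotation was used.

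The members, the gene lists and the classes of cells were chosen with earlier results of these data known. Cells were gated on at least 500 genes, at most 20% mitochondrial UMIs and the marker UMIs given in the results, and no clustering was used. Doublets were kept in the main analysis and removed as an alternative. Scrublet's own threshold marked 0.0111% to 2.92% of the barcodes, so the highest scores were removed at 0.8% per 1000 called barcodes, 5.80% to 8.75%. Cells are not replicates, so UMIs were summed per library and tested with edgeR 4.0.16 in R 4.3.3 (quasi-likelihood test, TMM, filterByExpr, Benjamini-Hochberg threshold 0.05), with group as the only term, and with the library as a block against monocytes. The labels give 2 samples for HFD, and p-values between groups measure the spread between these libraries, which edgeR moderated over all genes. SE is the absolute log2 difference over the square root of F. Shares carry exact Clopper-Pearson and CPM exact Poisson 95% intervals, which cover counting error only, as does the floor of 3 UMIs. Thinning used seed 1. All 10 members are named, and from a list the 3 genes with the highest mean CPM, while lists of other cell types are given mainly as sums. One gene that this rule names is not reported here. Ccr2, C6, H2-Ab1, Gpnmb, Spp1, Trem2, Spic, Nr1h3, Id3, Hspa1a and Hspa1b were named after their values were seen. Depth per library, and the 20 NCD monocytes in particular, limit the precision. Alternatives were other C1q, gene and mitochondrial limits, C1q after thinning, doublet removal, removal of cells with markers of other lineages, thinning to 1500 UMIs or none, no TMM, no filter on low counts, DESeq2 1.42.0 and leaving out libraries. The edgeR step was run on simulated data that gave every gene the same spread, so that run does not measure error or power for the 10 genes. Python 3.11.15 and SciPy 1.17.1 were used.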

Additional observations from a re-analysis of the deposited data

How the results depend on the processing

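No paired analysis was possible because the groups share only replicate number 1. For HFD against NCD and JQF against HFD, the direction and size of the differences rest on the HFD pair, and without either HFD library the fit has no residual degree of freedom and gives a value with no test. None of the 10 genes was called between groups under any alternative with a test, and the smallest adjusted p was 0.0679, for Cd207 in JQF against HFD without the filter on low counts. All 10 genes were called against monocytes under every alternative, with an adjusted p of at most 0.00358. Between groups, how many genes were called over the whole table did depend on the processing, and the cause was not tested: HFD against NCD gave 2149 genes with doublets removed, 3726 with no filter and 1108 with DESeq2, against 0. JQF against HFD gave 3 with C1q counted after thinning, 2 with doublets removed, 1 with other-lineage cells removed, 124 with no filter and 38 with DESeq2. JQF against NCD gave 107, 1750 and 501 with doublets removed, no filter and DESeq2. Genes called between C1q-high cells and monocytes went from 1872 to 4480 when 1 library was left out, lowest without HFD replicate 2, 2532 without JQF replicate 1 and highest without NCD replicate 1, and the cause was not tested.

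Leaving out HFD replicate 2 or replicate 1 gave log2 differences for HFD against NCD of −7.17 or −1.97 for Cd163 and −6.06 or −1.80 for Marco, and for JQF against HFD of 6.63 or 1.44 for Cd163, 6.36 or 2.12 for Marco and 6 or 0.83 for Timd4. In the same order Vsig4 was at −2.40 or −0.49 and Fcna at −2.37 or −0.63 for HFD against NCD, and at 2.01 or 0.12 and 1.74 or 0.01 for JQF against HFD. Leaving out HFD replicate 1 turned the sign for HFD against NCD of Clec4f (0.0177), Folr2 (0.505) and Clec1b (0.146) and for JQF against HFD of Clec4f (−0.0586), and leaving out HFD replicate 2 that of Cd5l (−0.327) for HFD against NCD and of Cd5l (0.176) and Folr2 (0.795) for JQF against HFD. With both HFD libraries in the fit, other settings also changed signs. For HFD against NCD these were Cd5l, −0.0589 with other-lineage cells removed and −0.0343 without TMM, Folr2, 0.00429 at 10% mitochondrial UMIs and 0.0804 with no filter, Clec1b, 0.0453 with no filter, and Cd207, −0.317 with other-lineage cells removed. For JQF against HFD, Folr2 was at 0.0111 and 0.0180 with at least 5 and 20 C1q UMIs, 0.117 with C1q after thinning, 0.00813 with doublets removed and 0.0785 with other-lineage cells removed. For JQF against NCD, Clec4f was at 0.00218 with at least 20 C1q UMIs, 0.0801 with C1q after thinning and 0.0157 with doublets removed, Folr2 at 0.0567 with C1q after thinning and 0.00512 with no filter, and Marco at −0.166 with other-lineage cells removed. Without TMM the median of all genes for HFD against NCD went from 0.06 to −0.09.

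Shares of cells depend on depth and on the gate by their construction. C1q-high cells with none of the 10 genes made up 35.4% in HFD replicate 1 and 17.8% in HFD replicate 2 with at least 5 C1q UMIs, and 2.63% in NCD and 13.2% in HFD replicate 2 with at least 20. With C1q counted after thinning they made up 1.43%, 22.1%, 9.83% and 20.3% in NCD, HFD replicate 1, HFD replicate 2 and JQF. They made up 35.1% and 18.0% in the HFD replicates with other-lineage cells removed, 17.5% in HFD replicate 2 at 1500 UMIs, and 23.4%, 7.56% and 20.2% in HFD replicate 1, HFD replicate 2 and JQF with no thinning. Cells with 7 to 10 of the genes made up 69.3%, 25.5% and 44.1% in NCD, HFD replicate 2 and JQF with C1q after thinning, 26.0%, 0.17%, 10.6% and 18.4% in NCD, HFD replicate 1, HFD replicate 2 and JQF at 1500 UMIs, and 78.9%, 6.11%, 39.7% and 51.1% with no thinning. In all of these NCD had the largest share with 7 to 10 genes and HFD replicate 1 the smallest. With no thinning the NCD mean was 7.72 genes and the mean share over the 10 genes 77.2%.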
